A study of Mus musculus with 10 samples.

Results

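The analysis asked how strongly genes were transcribed in control mouse embryonic stem cells when their promoters did or did not carry H3K27me3, trimethylation of lysine 27 on histone H3. The cells were of the E14 line and were engineered so that the histone chaperone NPM1 can be degraded through an auxin-inducible degron. All control cells therefore carried the degron allele too, and the file headers name a single clone, 38. The medium held LIF together with PD0325901, which blocks MEK, at 1 µM and CHIR99021, which blocks GSK3, at 3 µM. The cells were synchronized in G1 and then released. Polyadenylated RNA was sequenced 12 h after release without auxin (2 libraries). H3K27me3 was mapped with the same antibody by ChIP-seq 6 h after release without auxin (1 sample) and by CUT&RUN, in which a nuclease cuts chromatin next to the bound antibody, in control cells at 12 h (1 sample). The auxin, inhibitor, input and IgG samples were not used here.

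Of 33006 genes in the count table, 32968 had a single position and were classed. The classes were defined by the peak lists and not by the RNA. A gene was called marked when at least 1 base of its promoter window, 1000 bases on either side of the annotated 5′ end (2001 bases in all), lay under a deposited broad peak. This gave 1963 genes marked by both lists, 1035 marked by ChIP-seq only, 2396 marked by CUT&RUN only and 27574 unmarked genes. The peaks are from 1 sample per assay, so no class has a replicate, and the 2 RNA libraries are 1 group. Genes are not replicates, so the differences between classes below are descriptions of these libraries and carry no test. They are read against the gap between the RNA libraries. The labels do not say whether these came from separate cultures, so that gap may be technical only.

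H3K27me3 is written by Polycomb repressive complex 2 (PRC2) and is bound by CBX subunits of Polycomb repressive complex 1 (PRC1). In embryonic stem cells it is known for lying over CpG-rich promoters of developmental regulators that are kept at low levels, many of which also carry the active mark H3K4me3 and are called bivalent. Dinucleotides of C followed by G are depleted in most of the mouse genome and are dense in CpG islands.

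Promoter sequences of 4 genes that span the comparison are printed to show what the windows contain. Each is the 200 bases before the RefSeq start (GRCm38.p6, which is mm10), read 5′ to 3′ on the gene's strand, with CG dinucleotides in capitals. Esrrb (chr12:86360917-86361116, plus strand), which encodes an orphan nuclear receptor of the naive pluripotency network, had the highest level per kb of exon among genes marked by both lists. Tmem59l (chr8:70487349-70487548, minus strand), which encodes a brain membrane protein, was among those whose window was fully under ChIP-seq peaks. Rpl4 (chr9:64173187-64173386, plus strand), which encodes a ribosomal protein of the large subunit, had the highest level per kb among unmarked genes with a matched promoter. Olfr1 (chr11:73399496-73399695, minus strand) stands for the unmarked olfactory receptors with no fragment.

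Esrrb: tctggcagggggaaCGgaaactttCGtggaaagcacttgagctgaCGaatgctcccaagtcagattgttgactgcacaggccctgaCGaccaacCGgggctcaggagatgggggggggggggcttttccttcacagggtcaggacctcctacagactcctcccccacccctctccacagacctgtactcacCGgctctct
Tmem59l: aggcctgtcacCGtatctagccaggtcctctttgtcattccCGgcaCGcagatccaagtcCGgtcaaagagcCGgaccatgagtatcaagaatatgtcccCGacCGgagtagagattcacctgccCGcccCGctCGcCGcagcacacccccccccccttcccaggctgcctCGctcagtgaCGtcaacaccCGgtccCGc
Rpl4: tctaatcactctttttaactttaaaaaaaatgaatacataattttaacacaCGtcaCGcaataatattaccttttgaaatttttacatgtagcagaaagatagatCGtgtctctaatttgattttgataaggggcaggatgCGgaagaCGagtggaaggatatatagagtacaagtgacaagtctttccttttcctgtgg
Olfr1: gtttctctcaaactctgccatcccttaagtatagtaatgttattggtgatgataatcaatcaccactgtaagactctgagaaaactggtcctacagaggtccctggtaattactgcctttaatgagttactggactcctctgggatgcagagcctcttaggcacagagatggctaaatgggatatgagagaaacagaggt

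These stretches held 15 CG dinucleotides in Tmem59l, 6 in Esrrb, 5 in Rpl4 and 0 in Olfr1. The order of Esrrb and Rpl4 depended on the stretch. Over 300 bases, from 250 before the start to 50 after it, the counts were 20 in Tmem59l, 13 in Rpl4, 7 in Esrrb and 1 in Olfr1. Relative to the C and G content of these 300 bases, the ratio of CG was 1.06 in Rpl4, 0.71 in Tmem59l, 0.27 in Esrrb and 0.08 in Olfr1. CG content was not compared between the classes, because only 46.7% of the classed genes had a RefSeq promoter within 500 bases of their 5′ end.

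The 2 RNA libraries held 14789851 and 15183126 counts, of which 4.06% and 3.52% were mitochondrial. At this depth 1 fragment was worth 0.0679 and 0.0656 CPM (TMM-scaled counts over the library total, times 1e6), and a count of 0 still allows 3 fragments, 0.204 and 0.197 CPM. These limits cover counting error only. All 9 stem cell markers stood at 10 CPM or more in both libraries, among them Pou5f1 (1325 and 1340 CPM), Nanog (814 and 805 CPM) and Sox2 (571 and 541 CPM). None of 10 fibroblast and feeder markers did, and their summed level was 12.1 and 14.3 CPM. Of the 10, 4 were at 1 CPM or more in both libraries, at no more than 5.58 CPM in either. Lum, a defining fibroblast proteoglycan, had no fragment in replicate 1 and 0.0656 CPM in replicate 2. Of 8 primitive endoderm markers 5 were at 1 CPM or more in both libraries. At 10 CPM or more was 1 of them, the laminin gene Lama1 (174 and 159 CPM). Of 8 markers of 2-cell-like cells 7 were at 1 CPM or more in both libraries and 1 at 10 CPM or more. The summed levels of this last list were 31.0 and 42.8 CPM.

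Marked genes were expressed less often than unmarked genes in both libraries, and the share depended on which assay had marked them. Over all classed genes, 12245 (37.1%) reached 1 CPM in both libraries. Among genes marked by both lists 319 did, or 16.3%, with 17.1% in replicate 1 and 18.2% in replicate 2 taken alone. The share was 15.4% for CUT&RUN only (16.5% and 17.0% alone), 31.9% for ChIP-seq only (32.9% and 34.5% alone) and 40.7% for unmarked genes (41.3% and 41.4% alone). The gap between the libraries was at most 1.64 percentage points in any class. Genes marked by ChIP-seq only thus lay between the other marked classes and the unmarked genes under this window. When the 5′ end itself had to lie under a peak, their share was 14.7%, close to the 12.5% of both lists and the 12.0% of CUT&RUN only, with 39.2% for unmarked genes.

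The separation was wider at higher levels. Over all classed genes, 26.2% stood at 10 CPM or more in both libraries. Of the genes marked by both lists 61 did (3.11%), against 103 of ChIP-seq only (9.95%), 92 of CUT&RUN only (3.84%) and 8392 of the unmarked genes (30.4%). At 100 CPM or more there were 4, 8 and 8 genes in the 3 marked classes and 2240 unmarked ones. All 5394 marked genes together gave 1.53% and 1.58% of the CPM in the 2 libraries. Much of the unmarked class was silent as well: 43.9% of it had no fragment in either library, against 41.3% of genes marked by both lists, 51.3% of CUT&RUN only and 35.4% of ChIP-seq only. Among genes that RefSeq lists as protein-coding these shares were lower, at 23.7%, 26.9%, 34.4% and 18.8% in the same order. Silence without the mark was therefore common, while high levels with it were rare.

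**Figure D1:**
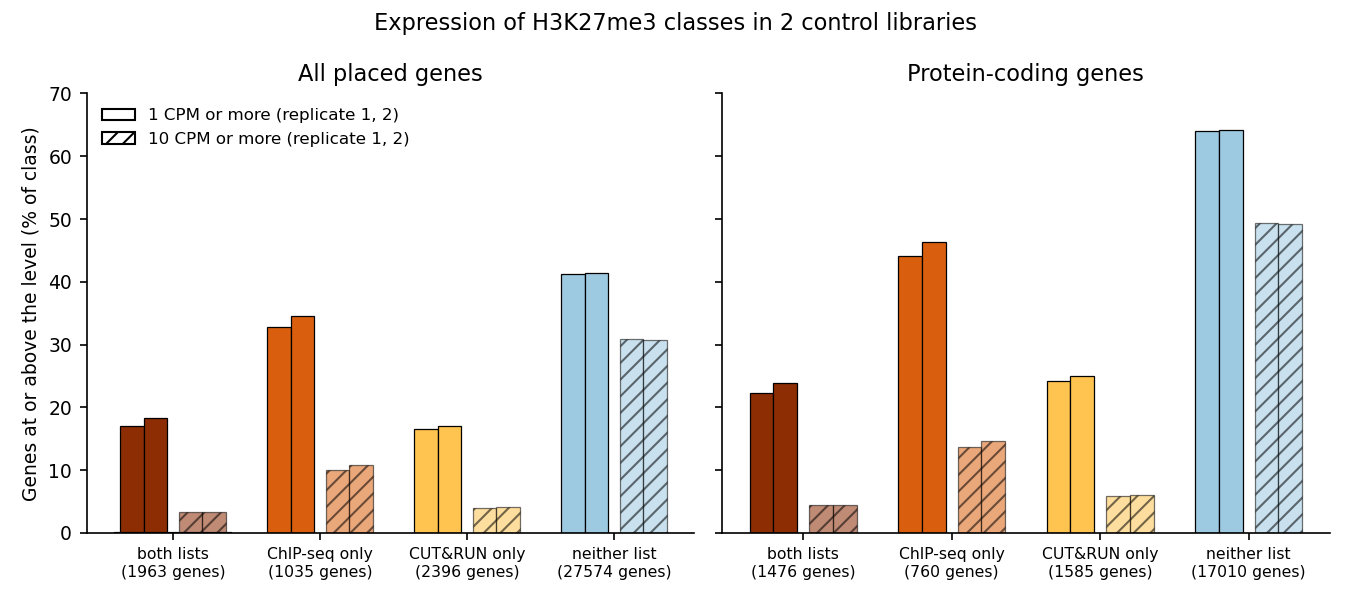
Share of genes at 1 CPM or more (plain bars) and at 10 CPM or more (hatched bars) in each H3K27me3 class, with 1 bar for each control library, for all placed genes (left) and protein-coding genes (right). In both panels the unmarked class is the tallest, ChIP-seq only comes next, and the bars of replicates 1 and 2 nearly coincide.

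Restricting the classes to genes that RefSeq lists as protein-coding, which are 63.2% of the classed genes, gave higher shares in every class and a wider distance to the unmarked one. The shares at 1 CPM or more in both libraries were then 21.3% for both lists, 42.8% for ChIP-seq only, 22.7% for CUT&RUN only and 63.4% for unmarked genes. Levels per kb of merged exon set the same classes apart among genes that were expressed at all. The median level per kb of genes at 1 CPM or more was 0.860 and 0.899 CPM per kb for both lists, 1.33 and 1.32 for ChIP-seq only, 1.06 and 1.06 for CUT&RUN only, and 8.72 and 8.64 for unmarked genes. Of the 1018 marked genes at 1 CPM or more in both libraries 256 stood at 10 CPM or more, against 8392 of 11227 unmarked genes.

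A fixed CPM threshold is easier to reach for a gene with long exons, so exon length was held roughly constant. Protein-coding genes were split into 4 bins of equal size by exon length. In the shortest bin (merged exons of 156 to 1581 bases) 5.06% of genes marked by both lists and 26.4% of unmarked genes were at 1 CPM or more in both libraries. In the longest bin (4868 bases or more) the shares were 37.3% and 87.8%. The unmarked share stood above the share of every marked class within all 4 bins, and ChIP-seq only was the highest of the marked classes in each. Median exon length itself differed little, from 2882 bases in unmarked protein-coding genes to 3158.5 bases in ChIP-seq only.

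Read the other way, from level to mark, the relation had a maximum between 0 and 1 CPM. With protein-coding genes binned by the lower of their 2 CPM values, 25.3% of the 6241 genes at 0 in at least 1 library had a mark of any class. The share was 49.2% of the 649 genes above 0 and under 0.1 CPM, and 42.9% of those from 0.1 to under 1 CPM. It was lower at every step after that: 32.3% from 1 to 3 CPM, 16.8% from 3 to 10 CPM, 6.13% from 10 to 30 CPM, 1.72% from 30 to 100 CPM and 0.893% at 100 CPM or more. Genes with a trace in both libraries were therefore marked more often than genes at 0 in at least 1 of them. Over all classed genes the maximum was instead from 0.1 to under 1 CPM (33.0%, against 32.4% above 0 and under 0.1 CPM). The bin above 0 and under 0.1 CPM is 1 fragment in the lower library, within what a count of 0 still allows. The lowest bin holds genes seen in 1 library too: 5120 protein-coding genes had no fragment in either, and 1085 of these were marked. Olfactory and vomeronasal receptors made up 1402 of the 6241 genes in the lowest bin. Without them 31.5% of that bin was marked, and 49.5% of the trace bin. Genes of the lowest bin also had shorter exons (median 1374 bases, against 2698 bases in the trace bin), and the part of exon length in the difference was not tested.

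**Figure D2:**
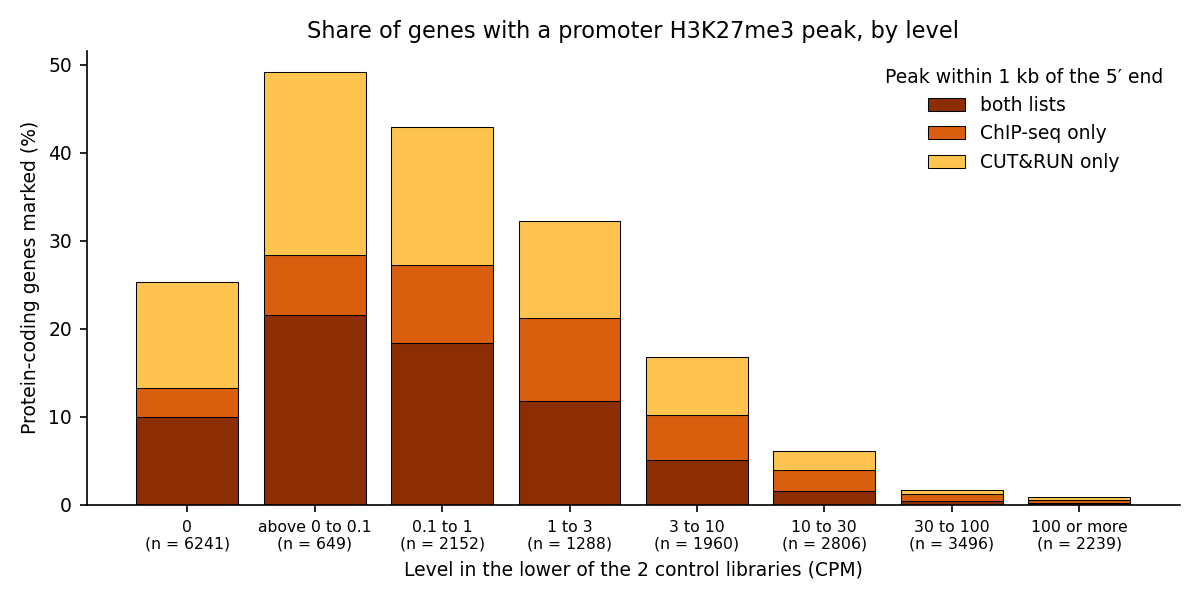
Percentage of protein-coding genes with an H3K27me3 peak within 1 kb of the 5′ end, split by class (stacked colours), in bins of the lower of the 2 control CPM values; n is the number of genes in each bin. The bars peak at 49.2% above 0 and under 0.1 CPM and shrink to 0.893% at 100 CPM or more.

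Peaks were placed differently around 5′ ends of silent and of weakly expressed genes. Among 3099 autosomal protein-coding genes at 1 to 10 CPM, a ChIP-seq peak lay over the 5′ end of 2.48%, over the base 1000 upstream of 4.90% and over the base 1000 downstream of 7.07%. The 3754 genes with a fragment but under 1 CPM showed a shallower dip, with 6.77% at the 5′ end, 7.91% upstream and 13.3% downstream. The 4604 genes with no fragment showed none, with 4.28% at the 5′ end, 2.45% upstream and 4.02% downstream. Weakly expressed genes thus had ChIP-seq peaks on either side of the 5′ end more often than on it.

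CUT&RUN peaks, whose median width was 862 bases against 445 bases for ChIP-seq, gave less of a dip. They lay over the 5′ end of 6.13% of genes at 1 to 10 CPM, over the upstream base of 6.97% and over the downstream base of 8.94%. In genes under 1 CPM the CUT&RUN share climbed through the 5′ end, from 15.3% upstream to 19.6% at the end and 22.9% downstream. From 10 CPM on, at most 1.07% of genes had a peak of either assay at any of these 3 positions. The assays also differ in time after release, 6 h against 12 h, and the part of time, peak width and assay cannot be told apart.

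**Figure D3:**
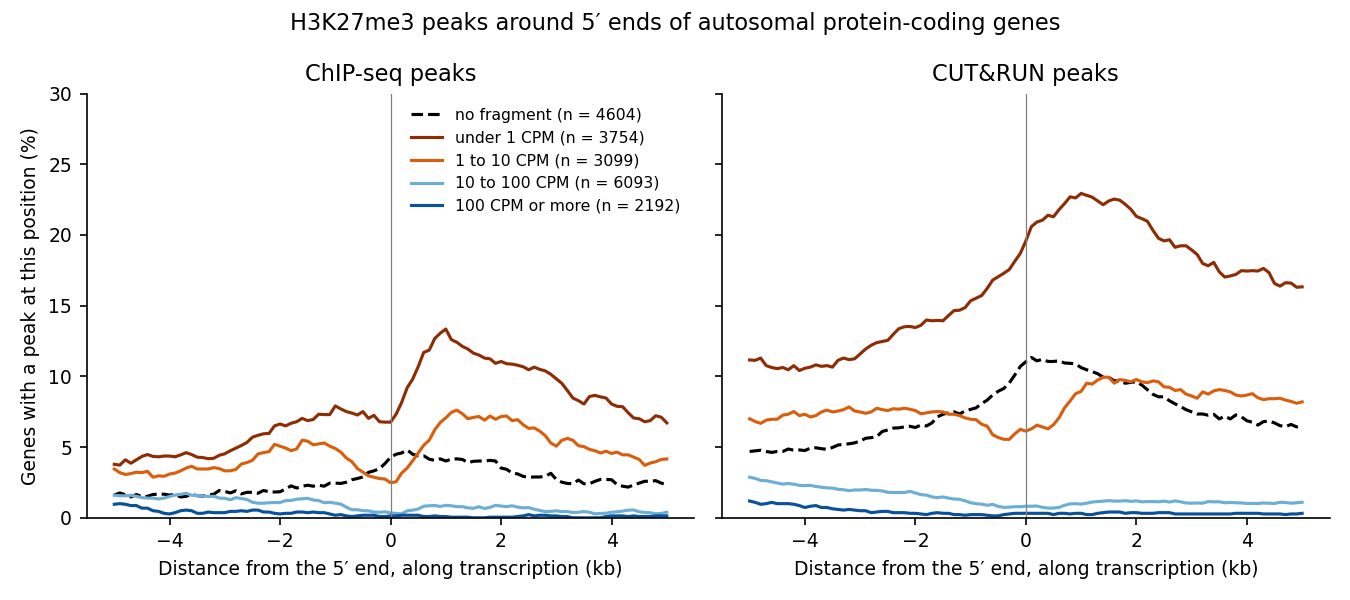
Percentage of autosomal protein-coding genes with a ChIP-seq (left) or CUT&RUN (right) H3K27me3 peak at each position from 5 kb before to 5 kb after the 5′ end, in the direction of transcription, with 1 line for each level class of the control libraries. The ChIP-seq lines of genes under 1 CPM and at 1 to 10 CPM dip near the 5′ end and crest about 1 kb downstream, while the line of genes with no fragment climbs through the 5′ end to 4.80% at 300 bases downstream.

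The share of expressed genes was higher with distance to the nearest peak, up to a limit. Of autosomal protein-coding genes with a ChIP-seq peak over the 5′ end, 18.3% were at 1 CPM or more in both libraries. The share was 32.0% with the nearest peak within 1000 bases, 48.8% at 1001 to 5000 bases, 66.2% at 5001 to 20000 bases and 76.0% at 20001 to 100000 bases. The CUT&RUN list gave 16.6%, 27.3%, 47.8%, 71.0% and 78.5% over the same steps. Beyond 100000 bases the share was down to 49.7% for ChIP-seq and 46.4% for CUT&RUN, and leaving out olfactory and vomeronasal receptors brought it to 60.3% and 60.9%. Low expression near a peak therefore reached past the promoter window, and genes far from any peak were not the most active ones.

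Within the genes marked by both lists, the share of expressed genes varied with the position and extent of the peaks. Where the 5′ end lay under a peak of both lists (392 genes) 12.5% were at 1 CPM or more in both libraries, and where it lay under a single list's peak (880 genes) 13.2% were. Where peaks touched the window but not the 5′ end (691 genes) the share was 22.3%. With the genes in 4 equal bins of CUT&RUN coverage of the window, it went from 22.8% in the least covered to 11.6% in the most covered, and in such bins of ChIP-seq coverage from 19.8% to 13.8%. In bins of the fold enrichment of the strongest peak, which is the authors' value, it went from 17.5% to 14.7% for ChIP-seq and from 19.6% to 14.9% for CUT&RUN. Across the 1963 genes, Spearman's rank correlation with the mean level per kb was −0.10 for CUT&RUN coverage, −0.06 for ChIP-seq coverage, −0.01 for CUT&RUN fold enrichment and 0.03 for ChIP-seq fold enrichment, a description across genes that are not independent. These rank correlations were all weak.

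The genes whose window was most covered by ChIP-seq peaks were silent or weakly expressed, as were most genes marked by both lists. Tmem59l, whose 2001 bases lay wholly under peaks of both assays, stood at 3.66 and 5.38 CPM. Slc38a3, an amino acid transporter with the same full coverage, stood at 2.99 and 2.30 CPM. Bhlhe23, a neural basic helix-loop-helix transcription factor, stood at 0.339 and 0.656 CPM. Foxl1, a forkhead factor of gut mesenchyme, and Krt78, a keratin of stratified epithelium, had no fragment in either library. Npas4, an activity-dependent neuronal transcription factor, had 1 fragment in each. For Krt78 and Npas4 the RefSeq 5′ end was 42337 and 13468 bases away and unmarked. None of the 10 genes chosen by this rule reached 10 CPM, which says little about coverage, since 3.11% of the class did. With the class in 4 equal bins of ChIP-seq coverage, 3.06% of the most covered bin reached 10 CPM and 3.26% of the least covered.

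The lists of gene families showed where the mark lay. They were drawn up with earlier results of these data known. Of all classed genes 5394 of 32968 were marked, and the lists below departed from that in both directions. Among all marked genes 18.9% were at 1 CPM or more in both libraries and 4.75% at 10 CPM or more. For protein-coding marked genes these shares were 26.1% and 6.60%.

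Of 38 Hox genes, which set position along the body axis, 30 were marked: 17 by both lists, 8 by ChIP-seq only and 5 by CUT&RUN only. Of the 30, 7 (23.3%) were at 1 CPM or more in both libraries and 0 were at 10 CPM. Against the shares of all marked genes given above, these counts do not set the marked Hox genes apart. Hoxb3, Hoxb5 and Hoxb6, all marked by both lists, had no fragment. Among the 8 unmarked Hox genes 5 were at 1 CPM or more, led by Hoxc13 at 25.2 and 21.0 CPM. The ranges of marked and unmarked Hox genes overlapped.

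Of 110 other developmental transcription factors 84 were marked, and 24 of these (28.6%) were at 1 CPM or more in both libraries, against 76.9% of the unmarked ones. The eye and neural regulator Pax6 (0.136 and 0.262 CPM) was marked by both lists and close to 0. Also marked by both lists were the endodermal factor Gata6 (1.15 and 0.787 CPM) and the trophectoderm factor Cdx2, which was above 1 CPM (3.87 and 4.79 CPM). T, the primitive streak factor Brachyury, was marked by ChIP-seq only and stood at 8.48 and 8.47 CPM. The 2 marked members at 10 CPM or more were Gata2, a blood and trophoblast regulator, at 10.5 and 12.7 CPM, and Olig1, an oligodendrocyte factor, at 19.5 and 21.7 CPM. Olig1 was marked by CUT&RUN only, over 42 of 2001 bases. The unmarked members were more often high. Among them were Cdx1 at 150 and 167 CPM, Foxd1 at 140 and 134 CPM and Eomes at 54.2 and 56.4 CPM. Of the 26 unmarked members 12 were at 10 CPM or more in both libraries, so the levels of marked and unmarked members overlapped.

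Secreted signals split the same way by level. Of 47 genes 37 were marked, and 15 of these were at 1 CPM or more in both libraries. Shh, which patterns neural tube and limb, was marked by both lists and had no fragment in replicate 1 and 0.0656 CPM in replicate 2. Wnt3, a primitive streak signal, stood at 1.02 and 2.49 CPM and was also marked by both. The Nodal antagonist Lefty1 was marked by CUT&RUN only and stood at 42.0 and 41.1 CPM, while its paralogue Lefty2 was unmarked at 190 and 168 CPM. The split of reads between these similar genes is uncertain. Fgf4 (287 and 264 CPM) and Nodal (180 and 188 CPM), signals made by pluripotent cells, were unmarked.

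Receptors for such signals, with ligands of axons and Notch, were marked less often than the secreted signals: 9 of 32, of which 1 was at 1 CPM or more in both libraries. The Wnt receptors Fzd5 (297 and 293 CPM) and Fzd7 (50.9 and 56.2 CPM) were unmarked. Dll4, a Notch ligand, was marked by both lists and stood at 0.0679 and 0.0656 CPM, 1 fragment in each library.

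Terminal markers of other lineages were marked often, with some exceptions. Of 41 neuronal channels and receptors 29 were marked. Of these, 5 (17.2%) were at 1 CPM or more in both libraries, near the 18.9% of all marked genes. Of 18 keratins and other epithelial genes 11 were marked, with Krt18, a keratin of simple epithelium, the highest of them at 13.6 and 18.6 CPM. Liver and immune lists had 7 marked genes of 20 each, and the albumin gene Alb was unmarked with no fragment. Of the 1106 olfactory receptors 57 were marked and none reached 1 CPM in both libraries. All 322 vomeronasal receptors were unmarked, and none reached 1 CPM either. These large receptor families were silent almost without the mark, whereas the developmental regulators carried it at low levels.

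Genes that stem cells use were seldom marked. All 80 cytosolic ribosomal protein genes were unmarked. Of 20 glycolysis genes only Eno2, the neuronal enolase, was marked, at 3.33 and 2.95 CPM by CUT&RUN only. Of 25 pluripotency genes 2 were marked, Esrrb by both lists and Dppa3, a maternal factor of naive cells, by ChIP-seq only at 0.882 and 1.25 CPM.

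The Polycomb genes themselves were mostly unmarked and expressed. Of 12 PRC2 genes only Phf19, an accessory subunit, was marked, by both lists, at 2.38 and 3.61 CPM, the lowest level of the list. The catalytic subunit Ezh2 stood at 131 and 129 CPM and the core subunits Suz12 at 258 and 250 CPM and Eed at 194 and 191 CPM. Of 23 PRC1 genes 3 were marked, among them the chromobox gene Cbx8 (2.78 and 2.76 CPM), by ChIP-seq only, and Pcgf5 (5.84 and 6.43 CPM), by CUT&RUN only. The RefSeq 5′ end of Pcgf5 was 30738 bases away and unmarked. Cbx7, the chromobox protein that prevails in stem cells, was unmarked at 166 and 154 CPM.

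Imprinted genes are expressed from 1 parental allele. Single-assay marks prevailed among all 5394 marked genes (1035 by ChIP-seq only and 2396 by CUT&RUN only) and among the marked imprinted ones. Of 33 genes 11 were marked, and 9 of the 11 were at 1 CPM or more in both libraries, the same share (81.8%) as among the unmarked ones. The 9 were the 4 genes marked by ChIP-seq only and the 5 marked by CUT&RUN only, while the 2 marked by both lists stood at 0.814 CPM or less. The growth factor gene Igf2 (61.8 and 75.3 CPM) and the adaptor gene Grb10 (104 and 107 CPM) were marked by CUT&RUN only, with 1375 and 1290 bases of the window covered and the 5′ end under a peak. Igf2r, which encodes the receptor that clears IGF2, was marked by ChIP-seq only over 134 bases and stood at 128 and 122 CPM. Cdkn1c, an inhibitor of the cell cycle, was marked by ChIP-seq only at 11.3 and 11.1 CPM. Neither the counts nor the peaks separate the alleles.

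**Figure D4:**
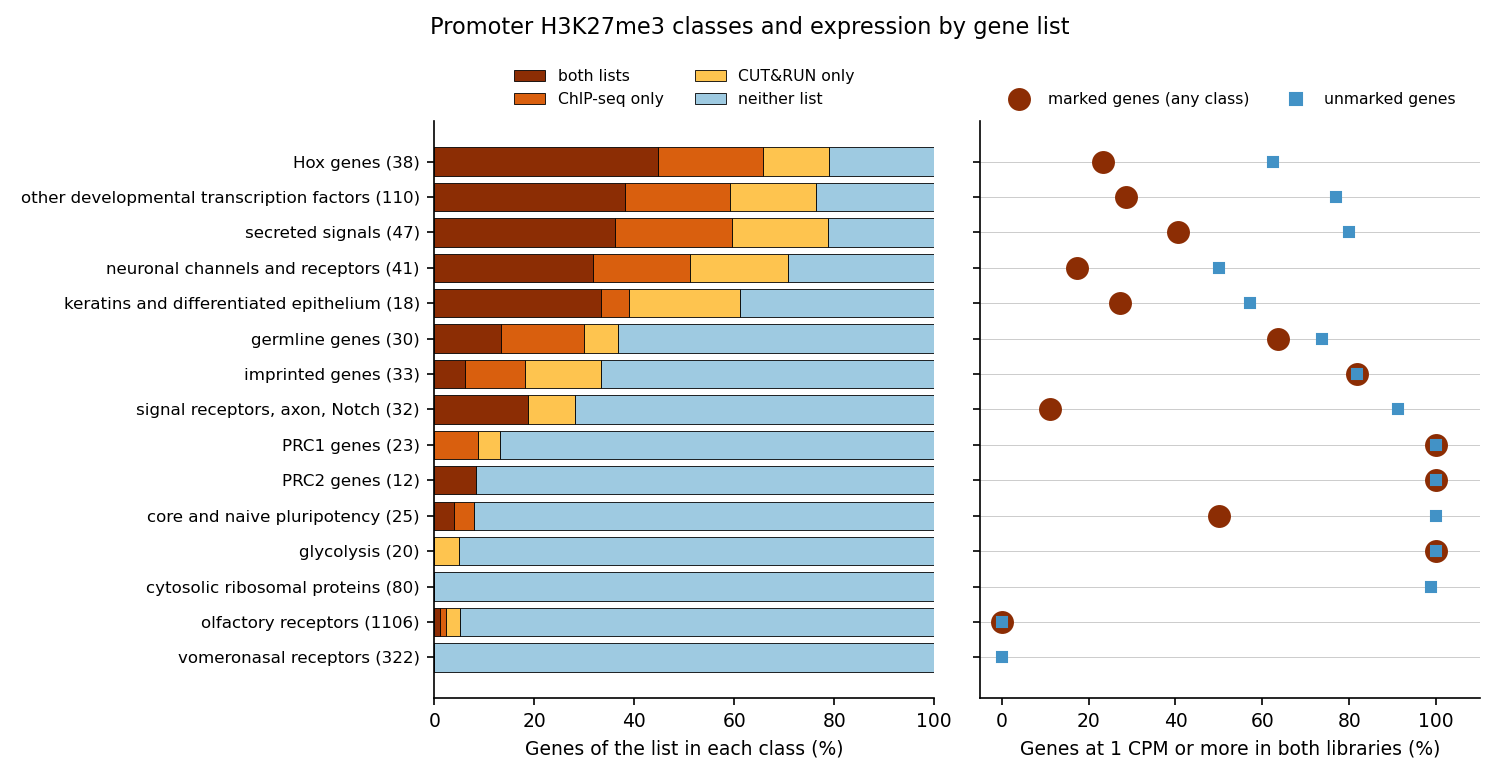
Left, share of each gene list in the 4 H3K27me3 classes, with the number of placed genes in brackets. Right, share of its marked genes (circles) and unmarked genes (squares) at 1 CPM or more in both control libraries; a list without marked genes has no circle. Hox genes, other developmental transcription factors and secreted signals are 76.4% to 78.9% marked, with circles left of squares, and in imprinted genes circle and square coincide at 81.8%, with the classes pooled.

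The 61 genes marked by both lists yet at 10 CPM or more in both libraries were picked on their level, so their levels are a description. All 61 were protein-coding, 59 stood at 1 CPM per kb or more in both libraries and 13 at 10 CPM per kb or more. The cut fell in a continuous range of levels: just above it were Rab15, a small GTPase (10.2 and 10.5 CPM), Sept3, a neuronal septin (10.7 and 10.4 CPM), and Gata2. Just under it were Zmat4, a zinc finger gene (10.9 and 9.97 CPM), Dbn1, the actin-binding drebrin (12.5 and 9.84 CPM), and Dab1, an adaptor in reelin signalling (10.0 and 9.32 CPM).

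Esrrb stood far above the rest at 1076 and 1023 CPM, or 174 ± 6.11 CPM per kb (SD, n = 2). Its 5′ end (chromosome 12, position 86361117, mm10, plus strand) lay under a CUT&RUN peak from 86358024 to 86362117 that covered all of the promoter window and thus the sequence printed above. ChIP-seq peaks covered 821 bases of the window, the nearest 214 bases from the 5′ end. No other annotated 5′ end lay nearer than 55111 bases. The next gene, Galnt6, which encodes an enzyme that starts O-linked glycosylation, stood at 36.6 ± 1.06 CPM per kb (SD, n = 2), with its 5′ end under a ChIP-seq peak. The levels of the 2 genes did not overlap.

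Among the genes that followed Galnt6 in level per kb, Gnl2, a nucleolar GTPase of ribosome assembly, stood at 97.2 and 100.3 CPM, Rtkn, a GTPase effector, at 86.5 and 89.6 CPM, and Gse1, a coiled-coil protein of the CoREST histone deacetylase complex, at 157 and 174 CPM. Usp37, a deubiquitinase of the cell cycle, stood at 116 and 121 CPM, and Dgkz, a diacylglycerol kinase, at 90.2 and 95.6 CPM. Both had their 5′ end under peaks of the 2 assays. Tcf15, a basic helix-loop-helix factor known from epiblast priming and somites, stood at 13.3 and 11.3 CPM, and its ChIP-seq overlap was 37 bases at the window's far edge. H1f0, a linker histone of differentiated cells, stood at 26.1 and 29.9 CPM. Also among the 61 were the neural stem cell and cancer marker Nes and the tumour suppressor homologue Trp73. So were the G1 cyclin Ccnd2 and the Polycomb protein gene Sfmbt2. The levels of these genes in replicate 1 were 10.9 to 22.4 CPM.

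**Figure D5:**
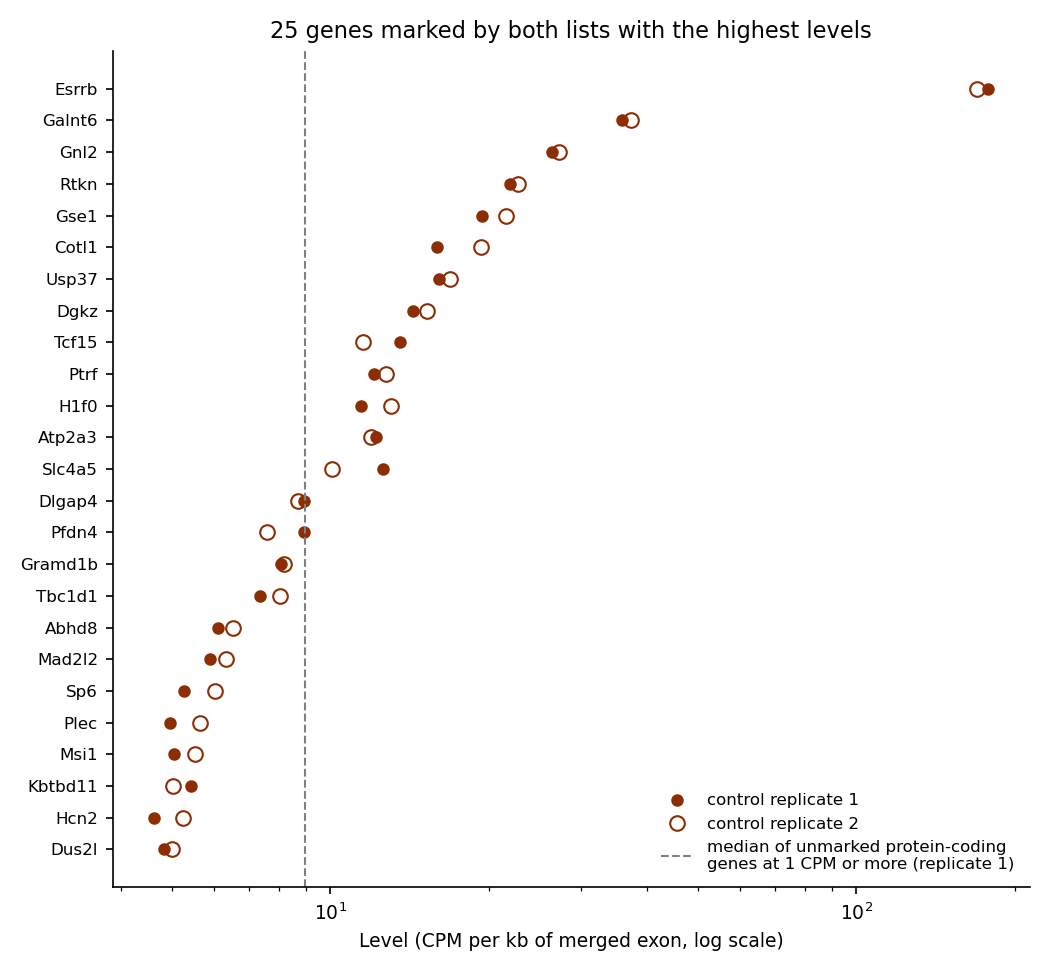
Levels per kb of merged exon (log axis) in control replicate 1 (filled) and replicate 2 (open) for the 25 genes marked by both lists with the highest mean level among those at 10 CPM or more; the dashed line is the median of unmarked protein-coding genes at 1 CPM or more in replicate 1. Esrrb lies apart from the rest at 178 and 169 CPM per kb, and the genes from Dlgap4 to Dus2l lie under the line in both libraries.

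For part of these genes the marked window may not be the one that other annotation gives. Among the 61, 17 (27.9%) had a RefSeq outermost 5′ end more than 1000 bases from the one used here, against 15.7% of all genes marked by both lists that matched RefSeq. At the RefSeq end 10 of the 61 (16.4%) were unmarked, against 4.22% of the genes marked by both lists and under 1 CPM. The 10 were Gnl2, Tcf15, Slc4a5, Abhd8, Msi1, Dus2l, Npdc1, Rap1gap2, Ccnd2 and Sept3. For Gnl2 the ends were 13404 bases apart, and for Msi1, a neural RNA-binding protein, 70540 bases. Conversely 43 of the 61 were marked by both lists at the RefSeq end too, Esrrb, Galnt6, Usp37 and Dgkz among them. Which end the transcripts of these cells use was not tested.

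Peak coverage among the 61 was uneven. The 5′ end itself lay under peaks of both assays in 11 genes, against 392 of 1963 in the whole class, which is a similar share. It lay under no peak in 30 of the 61, against 691 of 1963. In 13 genes CUT&RUN peaks covered the whole window, as for Esrrb and for Kbtbd11, a kelch protein gene (38.8 and 35.9 CPM). With the class in 4 equal bins of CUT&RUN coverage, 2.85% of the most covered bin (1784 bases or more) reached 10 CPM and 5.30% of the least covered. Another gene's 5′ end lay within 1000 bases in 7 of the 61, a share close to that of the whole class marked by both lists (220 of 1963). Of such pairs 2 are given as examples, chosen after their values were seen. Pfdn4, a subunit of the prefoldin chaperone (22.5 and 19.1 CPM), starts 717 bases from Cyp24a1, the vitamin D hydroxylase, which had no fragment in replicate 1 and 0.0656 CPM in replicate 2. Mad2l2, a DNA repair and pluripotency factor (15.5 and 16.6 CPM), starts 314 bases from Draxin, an axon guidance gene at 1.90 and 2.23 CPM. In both pairs the window of the more active gene held the 5′ end of a much less active one.

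The highest genes marked by a single assay stood above most of the 61 and below Esrrb. Of the genes at 10 CPM or more in both libraries, 4 of 61 marked by both lists reached 100 CPM. In the single-assay classes 8 of 103 (ChIP-seq only) and 8 of 92 (CUT&RUN only) did. The highest of ChIP-seq only were Rbm38, an RNA-binding protein of the p53 pathway (199 and 229 CPM), Tpm3, a tropomyosin (406 and 408 CPM), and Eef1d, a subunit of the translation elongation factor (269 and 259 CPM). Their peaks covered 771, 243 and 220 of 2001 bases, none over the 5′ end. The highest of CUT&RUN only was Dnmt1, the maintenance DNA methyltransferase, at 577 and 553 CPM with 201 bases covered. The retinoic acid receptor gene Rarg, also among the highest of this class, stood at 213 and 230 CPM with 423 bases covered. Nisch, which encodes an imidazoline-binding protein, stood at 569 and 580 CPM with its whole window under CUT&RUN peaks, but its RefSeq 5′ end was 10120 bases away and unmarked. Most of these high levels thus went with short overlaps or with another annotated start.

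Genes at the window's edge show how narrow the class limits are. Nr3c2, the mineralocorticoid receptor gene (1.43 and 1.71 CPM), and Tat, the liver enzyme tyrosine aminotransferase (no fragment), entered the class of both lists by 1 base of a peak. Esam, an endothelial adhesion gene (1.70 and 0.722 CPM), missed it by 2 bases, with its farther peak 1002 bases away.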

How the data were processed

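The authors deposited a count table with 1 row per gene name, not normalized. Per the file headers, the authors counted fragments with featureCounts 1.6.3 (paired, reverse strand, exons, an mm10 annotation) and give the merged exon length of each gene. The submitters' processing notes name STAR 2.6.1d, Bowtie2 2.4.1, SAMtools 1.9, Picard 2.18.11 and MACS2 2.1.1. The deposited broad peak lists, 1 sample each and not pooled, give the authors' score, fold enrichment (a ratio), −log10 p and −log10 q per peak. Their cutoff and control library were not given in the sources used here. These values served to describe and filter peaks within each list. There were 41159 ChIP-seq peaks (smallest −log10 q 1.02) and 66242 CUT&RUN peaks (1.00), 49 and 236 of them on chromosome X and none on Y.

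CPM are counts over TMM-scaled library sizes (edgeR 4.0.16 in R 4.3.3), computed from the 2 control libraries. The table's 2 auxin columns were not used. Counting used strand, so antisense neighbours are apart, but reads shared by near-identical copies (ribosomal proteins, olfactory receptors) were not resolved. The control libraries differed beyond sampling noise (a chi-square of 3.86 per degree of freedom over 14271 genes) and were kept as 2 replicates. The 38 genes without a single position were left out. Windows were set from the table's Chr, Start, End and Strand, and the overlap code (Python 3.11.15, pandas 2.3.3) was tested on simulated data. RefSeq (GRCm38.p6) matched 27760 of 32968 genes (84.2%) by symbol and position for biotype and 5′ end, and its promoters 46.7%.

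The classes, gene lists and named genes were chosen with earlier results of these data known. Genes were named by rule: the 25 highest per kb of exon among genes marked by both lists, at 10 CPM or more in both libraries and with 500 bases of exon or more; the 8 highest of each single-assay class; the 10 most covered by ChIP-seq; the 3 nearest each limit; and members of the lists. Of genes so named, some are given by count or in the plots alone, and some are not reported here. Names among the 61 beyond the 25, and the 10 unmarked at the RefSeq end, were picked after their values were seen. The lists cover Hox and other developmental factors, signals and receptors, pluripotency, PRC1 and PRC2, imprinted, germline, epithelial, neuronal, liver, immune, glycolysis, ribosomal and receptor families, and cell type markers. Alternatives varied the window, overlap, peak threshold, CPM threshold, scaling, gene set and 5′ ends. No p-value was computed, since 1 group and 1 peak list per assay allow none.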

Additional observations from a re-analysis of the deposited data

How the results depend on the processing

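Values below are the shares at 1 CPM or more in both libraries for both lists, ChIP-seq only, CUT&RUN only and unmarked genes, in that order, then the number marked by both lists at 10 CPM or more; values close to those reported are left out. In 17 of 17 settings the unmarked share was above the 3 marked shares and ChIP-seq only above the other marked classes; CUT&RUN only was below both lists in 10 of 17, so these classes have no stable order. A window of 500 bases on either side gave 12.3%, 25.2%, 13.4%, 40.3% and 28 genes, one of 2000 bases 19.8%, 38.6%, 17.9%, 41.1% and 136, and a peak over the 5′ end itself 12.5%, 14.7%, 12.0%, 39.2% and 11. Peaks with −log10 q of 2 or more gave 13.6%, 25.3%, 16.7%, 38.6% and 13. An overlap of 200 bases gave 14.8%, 30.0%, 15.0% and 40.6%. Thresholds of 0.5 CPM (5 CPM for the number) gave 22.6%, 38.0%, 20.0%, 43.0% and 105, and of 2 CPM (20 CPM) 10.8%, 24.1%, 11.4%, 38.3% and 28. Levels per kb gave 6.83%, 17.8%, 7.76%, 37.6% and 14. Genes with a fragment gave 27.7%, 49.3%, 31.6% and 72.6%, and protein-coding genes 21.3%, 42.8%, 22.7% and 63.4%. Without genes that have another 5′ end nearby, CUT&RUN only stood at 15.0% and unmarked genes at 37.3%. Leaving out 1 library gave 17.1% to 18.2%, 32.9% to 34.5%, 16.5% to 17.0%, 41.3% to 41.4% and 65 genes. Of alternatives chosen after seeing the data, autosomes gave 42.3% for unmarked genes, and RefSeq 5′ ends 18.9%, 37.0%, 18.3% and 47.9%. Scaling without TMM or by median ratios moved no share and gave 62 genes. The number of well-expressed genes marked by both lists thus rests on the window, the peak threshold and the CPM threshold. No paired analysis was possible because the 2 RNA libraries form 1 group and no test was made. One sample per assay leaves the error of each class unknown, and the peak lists do not give the read depth of either assay.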

Other observations

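Marked promoters were spread unevenly over the chromosomes. On the X chromosome 1 of 1452 genes was marked by both lists (0.0689%), although 28.7% of its genes were at 1 CPM or more in both libraries. On the autosomes the share marked by both lists ran from 3.13% on chromosome 16 to 9.64% on chromosome 15. The X held 49 of 41159 ChIP-seq peaks and 236 of 66242 CUT&RUN peaks, so few peaks were called there by either assay. Unmarked genes of the X therefore stay in the unmarked class whatever their level, and the values on autosomes alone stand among the alternatives above. Whether the lists were filtered on the X was not tested.

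Germline genes, many of which are known to be silenced by DNA methylation and by the PRC1.6 complex, carried H3K27me3 less often than the developmental lists. Of 30 genes 11 were marked (36.7%), 4 of them by both lists, against 5394 of 32968 over all classed genes. Of the 11, 7 were at 1 CPM or more in both libraries, against 73.7% of the unmarked ones. The piRNA-pathway gene Piwil1 was marked by both lists at 1.43 and 1.71 CPM, and the synaptonemal complex gene Sycp1 was marked by ChIP-seq only at 2.65 and 4.20 CPM. Tex15 (38.8 and 39.5 CPM), a meiosis gene, and Ddx4 (14.3 and 14.4 CPM), a germ cell RNA helicase, were unmarked. None of the 11 marked germline genes reached 10 CPM in both libraries, which says little, since 4.75% of all marked genes did.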
